A study of Mus musculus with 6 samples.

Results

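The proteasome subunit genes described here are the 49 features, of 32531 gene features in the count files, whose symbol is Psma, Psmb, Psmc, Psmd, Psme, Psmf or Psmg with a number. They were followed in translating ribosome affinity purification of the hypothalamus, which pulls down ribosomes through an EGFP tag on their L10a protein, together with the RNA they hold. The mice were untreated adult controls of the transgenic line Lhx5-TRAP DT154 (Lhx5-EGFP/Rpl10a), named for Lhx5, a LIM-homeodomain gene. All 6 libraries come from this one line, the exact age, the sex and the number of animals in a library are not stated, and nothing says that the 3 replicates came from separate animals, so p-values measure only the spread between these samples, which may be technical. The RNA caught by the antibody to EGFP (IP, 3 libraries) was set against unbound RNA (3 libraries), which the sample titles call input while the sample type calls it unbound.

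The proteasome is the ATP-dependent protease that degrades ubiquitin-tagged proteins. Its core particle is a barrel of stacked rings, with outer rings of alpha subunits that gate entry and inner rings of beta subunits, of which Psmb5, Psmb6 and Psmb7 carry the proteolytic sites. The regulatory particle caps the barrel: its base holds a ring of ATPases (Psmc genes) that unfold the substrate, and its lid holds the deubiquitinating enzyme Psmd14. Under interferon, and constitutively in many immune cells, Psmb8, Psmb9 and Psmb10 take the places of Psmb5, Psmb6 and Psmb7, and the alternative cap of Psme1 and Psme2 (PA28 alpha and beta) is induced. Neurons depend on the proteasome for protein turnover at synapses.

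IP libraries held 32471045 to 46293837 gene counts and unbound libraries 32926146 to 40768577, of which the proteasome genes took 108883 to 218521. Lhx5 stood at 58.0, 57.7 and 72.7 CPM in IP replicates 1 to 3 and at 2.04, 1.88 and 5.92 CPM in unbound replicates 1 to 3, and all 8 listed genes of the hypothalamus and the Lhx5 line were higher in IP. Of the listed glial genes 11 of 12 astrocyte, 12 of 12 oligodendrocyte and 13 of 14 microglia markers were lower in IP. Of 8 oligodendrocyte precursor markers 6 were lower and 1 higher (Lhfpl3). Of 8 tested ependymal and tanycyte markers 7 were lower and 1 higher (Nnat). Of 21 pan-neuronal markers 14 were higher and 1 lower. Among all genes tested 23.4% were called higher and 22.2% lower. Unbound replicate 3 stood apart from the other unbound libraries, with choroid plexus markers at 287 CPM in sum against 2622 and 2872 CPM. Levels are CPM, each gene's counts relative to the library's total, after TMM scaling over all gene rows, and n is 3 a group. "Rose", "higher", "fell" and "lower", where used of a gene as called, mean an adjusted p under 0.05 in the quasi-likelihood test of edgeR, adjusted by Benjamini-Hochberg over the 17034 genes tested. In bulk RNA, fewer cells of a type and less RNA per cell cannot be told apart.

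Of the 31 genes of the core particle and the regulatory particle 24 rose in IP, 0 fell and 7 were not called, against 23.4% of all genes tested that were called higher, 22.2% called lower and 45.6% called in either direction. The called genes lay between 0.36 and 1.02 on the log2 scale, and 23 of the 24 rose by less than 2-fold, Psmd3 being the exception. The median log2 fold change was 0.56 for the 14 core genes and 0.51 for the 17 regulatory particle genes, against 0.03 for all genes tested. IP libraries lay wholly above unbound libraries for 28 of the 31, against 29.7% of all genes tested with IP above, 27.4% with IP below and 57% in either direction. Over all 49 genes 48 were tested, and 32 rose, 2 fell (Psmb8 and Psme4) and 14 were not called. Among the 8696 tested genes with a mean level in the range of these 31 genes (11.3 to 287 CPM), 35.4% were called higher and the median was 0.25. The 31 genes together made up 0.396% of gene counts, before TMM scaling, in IP and 0.302% in unbound libraries on average. In TMM-scaled CPM the core genes summed to 1854 in IP and 1188 in unbound libraries on average. The regulatory particle genes summed to 2305 and 1685 CPM.

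**Figure D1:**
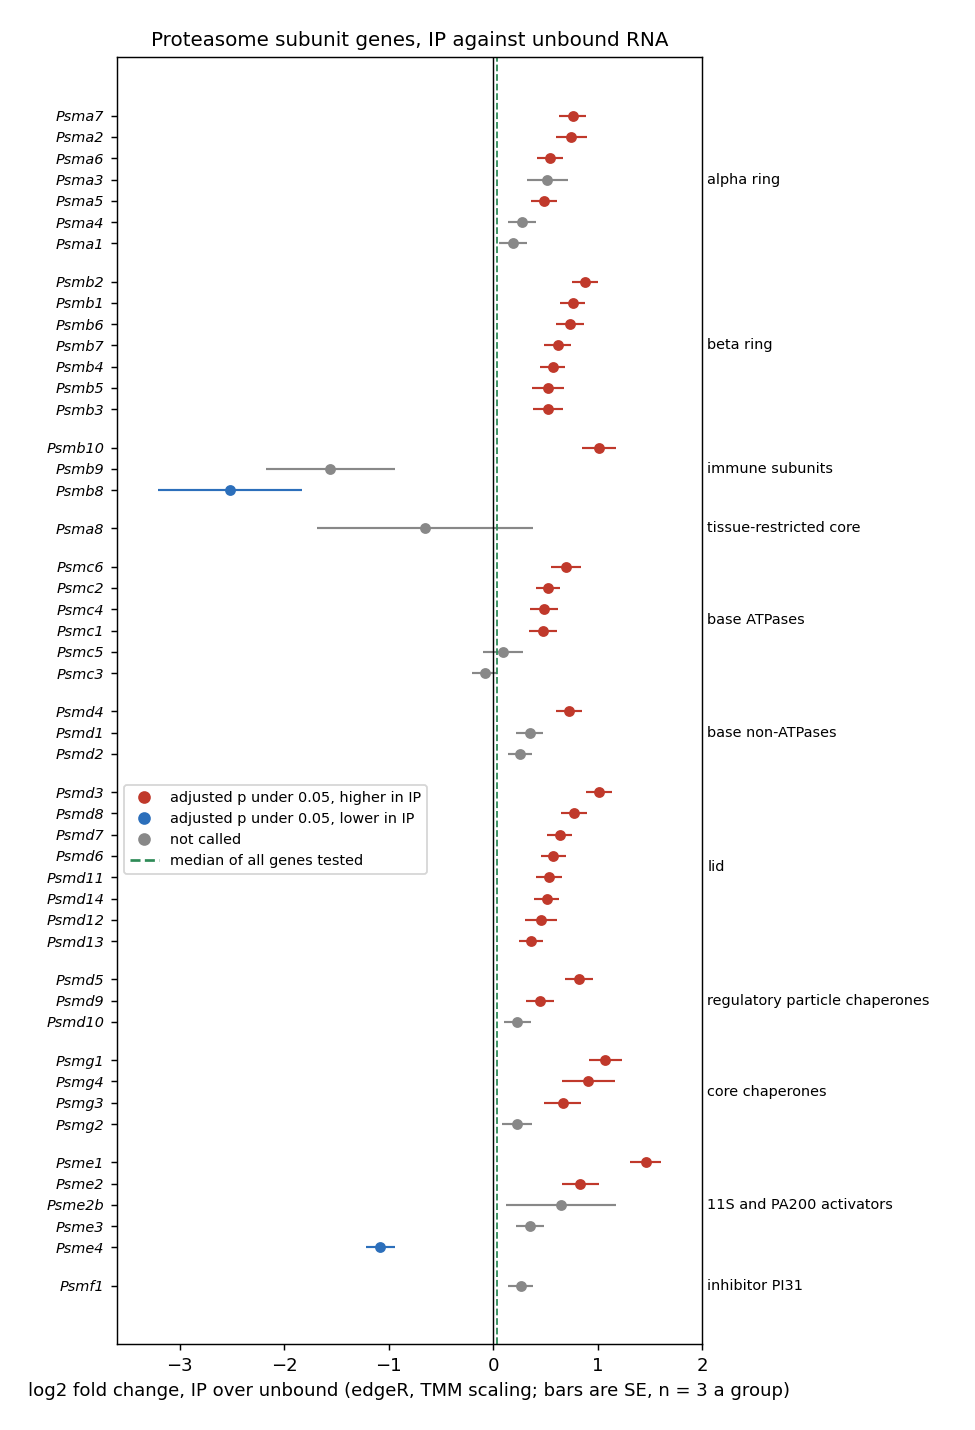
Log2 fold change of IP over unbound RNA for the 48 tested proteasome genes, ordered within role, with SE bars (n = 3 a group). Red points passed as higher in IP, blue points as lower, grey points were not called, and the dashed line is the median of all genes tested (0.03); 30 of the 31 core and regulatory particle genes sit right of it and Psmc3 left, with Psmb8, Psmb9 and Psme4 far to the left.

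The size of the rise depended on what the libraries were scaled to. Pan-neuronal markers had a median of 0.63, so scaling on them placed the core at -0.08 and the regulatory particle at -0.13, lowered the median of all genes by 0.64, and left 3 of the 48 proteasome genes higher (Psmd3, Psmg1 and Psme1) and 10 lower. Under that scaling 7.5% of all calls were higher, against 51.3% with TMM, 39.7% with library size alone and 34.1% in lane 2. The number of called genes also depended on single libraries: 21 genes rose without IP replicate 1, 20 without unbound replicate 1 and 18 without unbound replicate 2, with medians of 0.46, 0.48 and 0.42. Without unbound replicate 3, the library that stood apart, 35 rose with a median of 0.58. The lane in the labels follows the replicate number. The 4 libraries of lane 2 alone gave 6 higher and 1 lower with a median of 0.44, while lane 4 holds 1 library of each group and allows no test. Side by side, the same-numbered libraries gave core medians of 0.58, 0.61 and 0.51 for numbers 1 to 3, with all 14 core genes higher in the IP library each time, and regulatory particle medians of 0.54, 0.57 and 0.47, with 17, 16 and 15 of 17 higher.

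**Figure D2:**
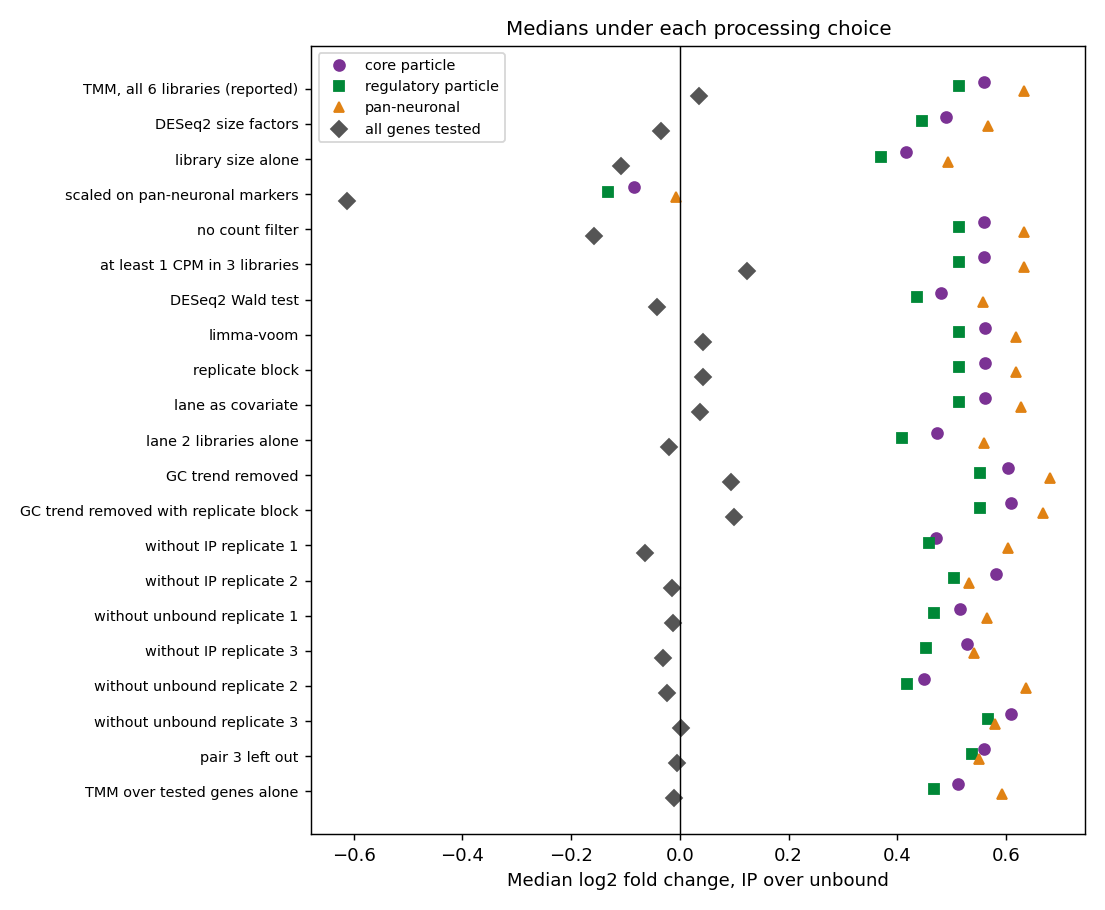
Median log2 fold change of IP over unbound (x axis) for the core particle, the regulatory particle, the pan-neuronal markers and all genes tested, under each processing choice (y axis). The core and regulatory particle stay to the right of all genes in each row, including the row scaled on pan-neuronal markers, where they sit at -0.08 and -0.13 and all genes at -0.61.

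Beside the counts by role that follow, 23.4% of all genes tested were called higher and 22.2% lower. Among tested genes with a mean level of 11.3 to 287 CPM 35.4% were called higher. In the alpha ring 4 of 7 genes rose (Psma2, Psma5, Psma6 and Psma7) and 3 were not called. Psma7 changed most, from 169, 159 and 181 CPM in unbound replicates 1 to 3 to 297, 264 and 302 CPM in IP replicates 1 to 3. Its groups were far apart, with a log2 fold change of 0.76 ± 0.13 (SE; adjusted p = 0.00179, edgeR). Psma1 changed least, at 67.8, 64.2 and 59.6 CPM in IP and 62.8, 53.3 and 51.9 CPM in unbound libraries. Those groups overlapped, and the value of 0.19 did not pass (adjusted p = 0.269 in the same edgeR test). Psma3 (0.52) missed the threshold at an adjusted p of 0.0559 (edgeR) and passed with the replicate block (0.52, adjusted p = 0.0293, edgeR). That block pairs same-numbered libraries, a pairing taken from these counts and not from a label. Over the members alone, deviations from the group mean correlated at -0.364, 0.549 and -0.272 within these pairs, which does not bear the pairing out. Psma4 was at 0.28 and was not called.

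All 7 beta ring genes rose, between 0.53 and 0.88, and IP lay above unbound in each. Psmb2 led, from 91.7, 81.2 and 92.9 CPM in unbound to 164, 157 and 167 CPM in IP libraries (log2 0.88 ± 0.12, adjusted p = 8.1e-04, edgeR). Psmb3 was the smallest rise, from 21.03, 17.43 and 20.60 to 30.49, 26.90 and 27.68 CPM (log2 0.53 ± 0.15, adjusted p = 0.0176, edgeR). It lost its call in 6 of 20 alternatives, among them each that left out IP replicate 1, unbound replicate 1 or unbound replicate 2 (0.40, 0.52 and 0.38). The 3 constitutive catalytic genes all rose. Psmb5, the chymotrypsin-like subunit, stood at 38.3, 32.7 and 41.4 CPM in IP and 25.8, 23.1 and 29.1 CPM in unbound libraries. Psmb6, the caspase-like subunit, stood at 153, 131 and 139 CPM in IP and 84.7, 77.3 and 91.5 CPM in unbound libraries. Psmb7, the trypsin-like subunit, stood at 185, 180 and 203 CPM in IP and 133, 111 and 126 CPM in unbound libraries. Their log2 fold changes were 0.53 ± 0.15, 0.74 ± 0.13 and 0.62 ± 0.13. The call of Psmb5 (adjusted p = 0.0204, edgeR) was lost without IP replicate 1 or 3 or unbound replicate 1 or 2, at 0.38 to 0.47.

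The 3 immune subunits did not move as a set: Psmb10 rose, Psmb8 fell and Psmb9 was not called. Psmb10 encodes the immune trypsin-like subunit and stood at 77.9, 59.0 and 60.4 CPM in IP replicates 1 to 3 against 29.3, 30.9 and 37.6 CPM in unbound replicates. The groups were apart, and the difference was 2.02-fold (log2 1.01 ± 0.16, adjusted p = 0.00155, edgeR). Scaled on pan-neuronal markers Psmb10 was at 0.37 and did not pass (adjusted p = 0.112, edgeR). Psmb8, the immune chymotrypsin-like subunit, stood at 0.34, 0.16 and 0.07 CPM in IP against 0.60, 1.11 and 1.58 CPM in unbound libraries. That is 14, 5 and 3 counts against 24, 38 and 70, a log2 fold change of -2.52 ± 0.69 (adjusted p = 0.0168, edgeR). The call was lost without IP replicate 2 (-2.45, adjusted p = 0.0542, edgeR), without both libraries numbered 3 (-1.76) and in lane 2 alone (-2.50). Psmb9, the immune subunit that takes the place of Psmb6, stood at 1.04, 0.73 and 0.30 CPM in IP against 0.80, 2.76 and 2.55 CPM in unbound libraries. IP replicate 1 lay above unbound replicate 1, and the value of -1.56 ± 0.62 missed the threshold (adjusted p = 0.0671, edgeR). It passed in DESeq2 (-1.64), without unbound replicate 1 (-1.98) and under pan-neuronal scaling (-2.17).

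Per kb of annotated exon, Psmb8 reached 0.14% ± 0.10 of the level of Psmb5 in IP and 1.12% ± 0.44 in unbound libraries (SD, n = 3). Psmb9 reached 0.25% ± 0.12 of Psmb6 in IP and 1.25% ± 0.69 in unbound libraries. Psmb10 was of another order, at 70.0% ± 13.0 of Psmb7 in IP and 53.3% ± 8.1 in unbound libraries, with the groups overlapping. These shares come from RNA and say nothing of assembled particles. They also depend on the length used. Psmb8 has 3381 bases of merged exon and 1907 in its longest transcript, whereas Psmb5 has 899 by either measure. Psmb9 has 3660 and 2884 bases, and Psmb6 has 1872 and 966. By longest transcript the share of Psmb8 is therefore larger and that of Psmb9 smaller, so their order is not settled. Of the 50-base stretches in Psmb5 transcripts 47.4% also occur in another gene, so its level is uncertain. Psmb8 and Psmb9 lie close to each other on chromosome 17 (34197721 to 34201454 and 34181987 to 34187764, mm10), where exons of Psmb9 overlap those of Tap1 and exons of Psmb8 overlap an antisense gene. Psmb10 lies apart from them on chromosome 8 (105935735 to 105938444). Microglia markers, of which 0 of 14 were higher, summed to 12.4 to 32.6 CPM in IP and 101 to 168 CPM in unbound libraries, and vascular markers to 4.86 to 9.57 and 27.8 to 51.4 CPM. Aside from these sums, 13 of 14 microglia and 7 of 10 tested vascular markers were called lower in IP. Their part in the values of Psmb8 and Psmb9 was not tested.

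**Figure D3:**
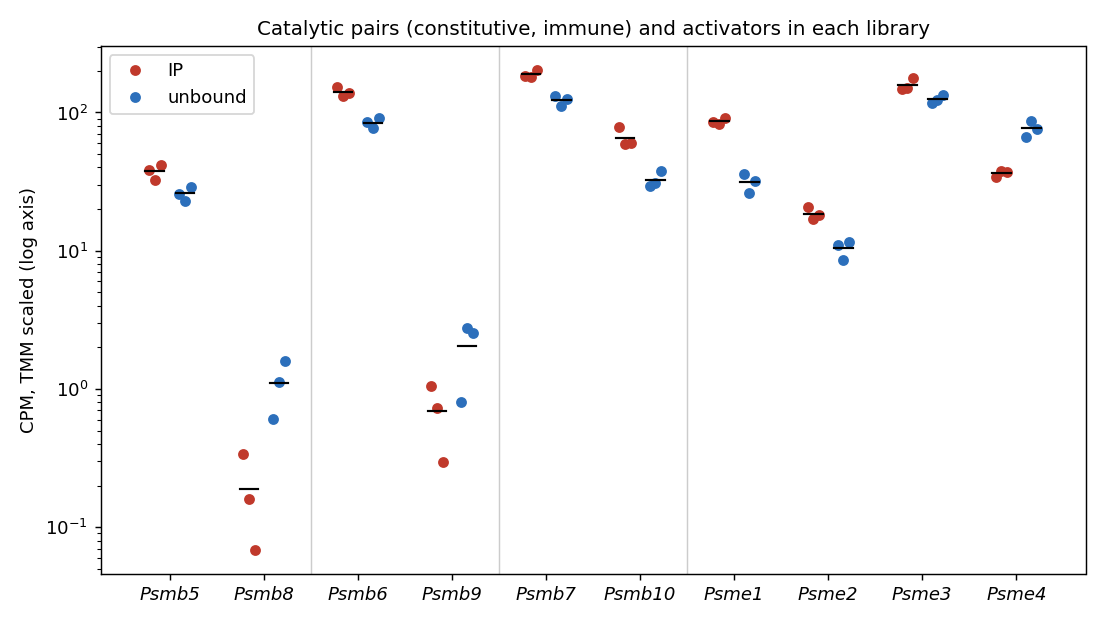
CPM (log axis) in each library for the constitutive and immune catalytic subunits, set side by side as pairs, and for the Psme activators, with the mean of each group as a bar. Psmb10 sits in the range of the constitutive genes and higher in IP, whereas Psmb8 and Psmb9 lie at or below 2.76 CPM in each library and Psme4 is the activator that is lower in IP.

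Both genes of the tissue-restricted core were close to the limit of detection. Psma8, a testis alpha subunit, had 0 counts in IP replicate 1 and at most 0.37 CPM elsewhere, with overlapping groups (log2 -0.65, adjusted p = 0.631, edgeR). Psmb11, the thymus subunit, had 0 counts in the 3 IP libraries, where 3 counts would be 0.07 to 0.10 CPM, and 2, 6 and 2 counts in the unbound libraries. It did not pass the count filter and was not tested.

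Among the base ATPases 4 of 6 rose, Psmc1 (0.48), Psmc2 (0.52), Psmc4 (0.49) and Psmc6 (0.70). Psmc6 went from 63.5, 52.9 and 73.4 CPM in unbound to 101, 105 and 102 CPM in IP libraries (log2 0.70 ± 0.15, adjusted p = 0.00508, edgeR). Psmc3 was the one gene of the 31 with a value below 0, at 71.1, 68.2 and 62.9 CPM in IP and 68.0, 73.8 and 71.7 CPM in unbound libraries. Those groups overlapped (log2 -0.08 ± 0.12, adjusted p = 0.616, edgeR). Psmc5, chosen after its values were seen, was at 286, 283 and 318 CPM in IP and 230, 237 and 366 CPM in unbound libraries. Unbound replicate 3 was the highest of the 6, and without it the value went from 0.09 to 0.32.

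Of the base genes that are not ATPases only Psmd4, a ubiquitin receptor, rose. It went from 73.4, 69.2 and 83.4 CPM in unbound to 124, 124 and 126 CPM in IP libraries (log2 0.73 ± 0.13, adjusted p = 0.00208, edgeR). Psmd1 and Psmd2, the large scaffold subunits, did not overlap between groups but missed the threshold. Psmd2 stood at 94.8, 101 and 100 CPM in IP and 79.5, 83.6 and 84.6 CPM in unbound libraries (log2 0.26 ± 0.12, adjusted p = 0.0990, edgeR). Psmd1 was at 0.35 (adjusted p = 0.0546, edgeR) and passed with the replicate block (0.35, adjusted p = 0.0290, edgeR), whose pairing no label gives.

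All 8 lid genes rose. Psmd3, a scaffold of the lid, showed the largest change of the 31, from 34.0, 32.3 and 30.1 CPM in unbound to 68.3, 65.0 and 61.7 CPM in IP libraries, a 2.02-fold difference (log2 1.02 ± 0.12, adjusted p = 4.7e-04, edgeR). It kept its call under pan-neuronal scaling (0.37). Psmd14, the deubiquitinase, rose by 0.51, and Psmd7, its partner in the lid, by 0.64. Psmd13 was lowest, at 39.2, 41.8 and 41.0 CPM in IP and 30.9, 31.7 and 32.2 CPM in unbound libraries (log2 0.36 ± 0.12, adjusted p = 0.0323, edgeR). Psmd13 lost its call in 13 of 20 alternatives and Psmd12 (0.46) in 12, including in each case every single library left out other than unbound replicate 3. Psmd6 (0.58), Psmd8 (0.78) and Psmd11 (0.53) were the other rises.

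Of the 7 genes for assembly factors 5 rose and 0 fell, against 23.4% of all genes tested called higher and 22.2% lower. Of the core chaperones Psmg1, Psmg3 and Psmg4 rose (1.07, 0.67 and 0.91) and Psmg2 did not pass. Psmg1, which pairs with Psmg2 to build the alpha ring, went from 14.2, 16.4 and 14.3 to 30.7, 27.9 and 36.1 CPM in IP (log2 1.07 ± 0.16, adjusted p = 0.00103, edgeR). Psmg2 stood at 24.0, 24.9 and 22.4 CPM in IP and 18.2, 22.1 and 20.6 CPM in unbound libraries, with IP just above unbound (log2 0.23 ± 0.15, adjusted p = 0.231, edgeR). Of the base chaperones Psmd5 rose by 0.82 ± 0.13, from 73.8, 69.0 and 77.5 to 116, 127 and 146 CPM (adjusted p = 0.00165, edgeR), and Psmd9 by 0.45. Psmd9 lost its call in 9 of 20 alternatives, and an annotated long noncoding gene overlaps 25.5% of its exon bases. Psmd10, known as gankyrin, stood at 50.1, 48.8 and 49.0 CPM in IP and 40.7, 37.5 and 47.6 CPM in unbound libraries (log2 0.23 ± 0.13, adjusted p = 0.182, edgeR). Psmf1, which encodes the inhibitor PI31, stood at 48.5, 50.3 and 47.0 CPM in IP and 39.7, 38.4 and 43.2 CPM in unbound libraries, and its 0.27 ± 0.12 was not called (adjusted p = 0.102, edgeR).

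The activator genes moved in both directions. Psme1 rose most of all 49 genes, from 35.7, 26.3 and 31.9 CPM in unbound to 85.4, 82.1 and 91.6 CPM in IP libraries, a 2.76-fold difference (log2 1.46 ± 0.15, adjusted p = 2.3e-04, edgeR). It stayed called when scaled on pan-neuronal markers (0.81, adjusted p = 0.00300, edgeR). Psme2, its partner, went from 11.04, 8.57 and 11.56 to 20.60, 16.88 and 18.15 CPM (log2 0.83 ± 0.18, adjusted p = 0.00574, edgeR). Under pan-neuronal scaling Psme2 was at 0.19 (adjusted p = 0.440, edgeR). Psme1 and Psme2 lie close together on chromosome 14 (55578123 to 55581529 on the plus strand and 55587441 to 55591113 on the minus strand, mm10). Psme4, which encodes the nuclear activator PA200, moved the other way: it stood at 33.9, 37.7 and 37.4 CPM in IP and 66.8, 87.2 and 76.2 CPM in unbound libraries. Every IP library was lower than every unbound library, by 2.11-fold on the fit (log2 -1.08 ± 0.14, adjusted p = 6.5e-04, edgeR), and the call held in all 20 alternatives. Psme3, the nuclear PA28 gamma, was at 0.36 (adjusted p = 0.0555, edgeR). It passed with the replicate block (0.35, adjusted p = 0.0281, edgeR), whose pairing no label gives. Psme2b, a copy of Psme2, stayed at or below 1.14 CPM in each library (log2 0.65, adjusted p = 0.340, edgeR).

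Compared per kb of merged exon, the subunits of one particle differed far more from each other than IP differed from unbound RNA. In IP the 31 genes ran from 3.42 CPM per kb for Psma3 to 212 CPM per kb for Psmc5, with a median of 42.4. The top gene depended on the length used. Per kb of the longest transcript, Psmb4 was at 270 CPM in IP, Psmc5 at 212 and Psma3 at 4.68. The coefficient of variation over the 14 core genes was 80.3% ± 1.3 in IP and 78.4% ± 2.1 in unbound libraries, and over the 17 regulatory particle genes 93.6% ± 4.1 and 113% ± 16.8 (SD over 3 libraries). The order of the 31 genes was nearly the same everywhere, with Spearman correlations across genes of 0.99 within IP, 0.98 to 0.99 within unbound and 0.95 to 0.98 between the groups. These correlations are descriptive, since the libraries share the same gene lengths and genes are not independent replicates. The ratio of the core median to the regulatory particle median per kb was 1.03, 0.94 and 1.29 in IP replicates 1 to 3 and 1.09, 1.01 and 1.18 in unbound replicates 1 to 3, with overlapping groups.

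**Figure D4:**
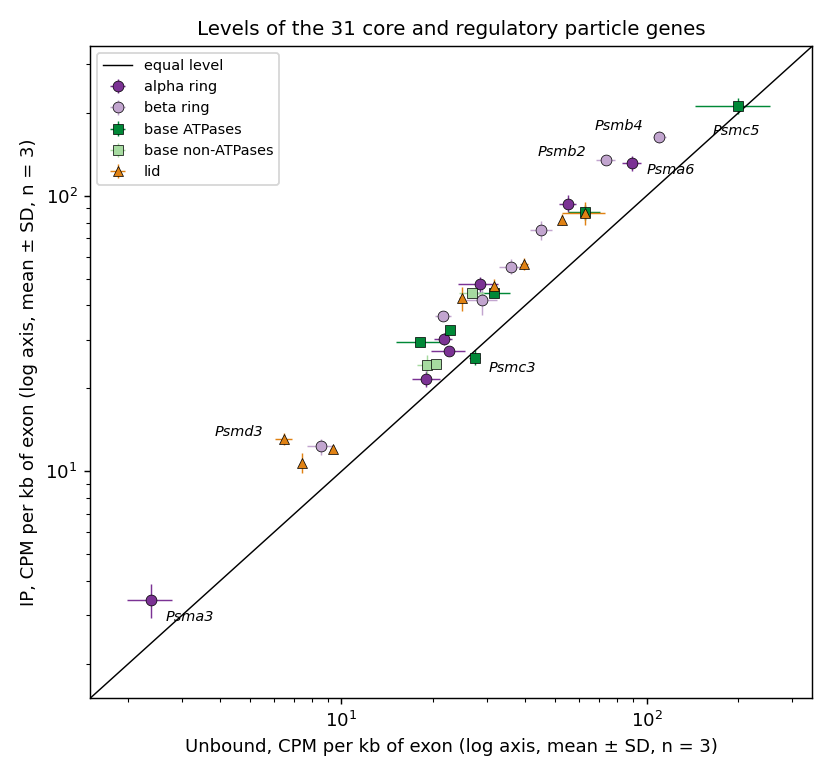
Mean CPM per kb of merged exon in unbound (x axis) and IP libraries (y axis), both on log axes with SD over 3 libraries, for the 14 core and 17 regulatory particle genes. The points run parallel to and above the line of equal level from Psma3 (3.42 in IP) to Psmb4 (164), with Psmc3 below the line and Psmc5 (212) close to it.

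Some of this spread touches how reads could be counted. Reads that aligned to several places made up 44.5% ± 0.67 of listed reads in IP and 32.5% ± 0.62 in unbound libraries and were not counted, and 1.61% ± 0.03 against 8.31% ± 1.07 were ambiguous between overlapping genes. In the GENCODE M21 transcripts 9 of the 49 genes share over 10% of their 50-base words with another gene. The largest shares were 69.3% for Psme2b, 49.1% for Psma5, 47.4% for Psmb5 and 28.3% for Psme2, and Psma3 had 15.4%. The levels of these genes are uncertain, and the part of read placement in their differences was not tested. Exons of 14 members overlap another annotated gene. Across the 48 tested genes the log2 fold change had a Spearman correlation of -0.20 with merged exon length and of 0.26 with GC content, given as a description.

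The 49 genes lie on 16 chromosomes, and the promoters were searched for sequence that the coordinated genes might share. The antioxidant response element is bound by Nfe2l1, which raises proteasome genes when proteasome activity falls, and by Nfe2l2, which responds to oxidative and electrophile stress. Its core, searched as TGACNNNGC on both strands in the 250 bases before the RefSeq start (GRCm38.p6), was found in 5 of 44 promoters of 41 matched genes (11.4%), against 11.7% of 14895 promoters of genes tested. The CCAAT box, CCAAT on either strand, was found in 14 of 44 (31.8%) against 34.6%. Both shares are close to those of all promoters, and no promoter of a member held both, against 3.87%. The 5 matches are shown with up to 20 bases on each side, on the strand of the gene, with the match in capitals.
Psmb5 (chr14:54618014-54618062, minus strand): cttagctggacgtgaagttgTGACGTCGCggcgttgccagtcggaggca
Psmb6 (chr11:70525328-70525356, plus strand): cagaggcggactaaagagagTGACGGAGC
Psmd9 (chr5:123228139-123228187, plus strand): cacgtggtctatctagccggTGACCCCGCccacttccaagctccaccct
Psmc6 (chr14:45329577-45329625, plus strand): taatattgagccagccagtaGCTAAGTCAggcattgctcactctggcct
Psmd12 (chr11:107479278-107479309, plus strand): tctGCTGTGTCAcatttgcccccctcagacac
The matches of Psmb5, Psmb6 and Psmd9 lie within 47 bases of the start and read forward, while those of Psmc6 and Psmd12 lie 219 to 247 bases before it and read on the other strand. All 5 genes rose in IP, at 0.53, 0.74, 0.45, 0.70 and 0.46 on the log2 scale, as did most members without a match.

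Of 12 tested partners without a Psm symbol 7 rose and 1 fell (median 0.44), but 4 rose without any one of IP replicates 1 to 3 or unbound replicates 1 and 2, and 0 rose and 4 fell under pan-neuronal scaling (median -0.20). Pomp, the chaperone of the beta rings, went from 213, 184 and 237 to 407, 419 and 461 CPM (log2 1.02 ± 0.14, adjusted p = 8.1e-04, edgeR). Usp14, a deubiquitinase bound to the base, rose by 0.74 and Zfand2a by 0.78. Fbxo7, a ubiquitin ligase component that binds PI31, fell by 0.73. Of 7 ubiquitin shuttle genes 4 rose, among them Rad23b (0.56) and Ubqln1 (0.50), and 0 fell. The count was 2 without IP replicate 2 or unbound replicate 1, and under pan-neuronal scaling 0 rose and 2 fell. Of 6 tested genes for ubiquitin and its activating enzymes only Uba1, the main E1 enzyme, rose (0.59). Leaving out IP replicate 2 or 3 or unbound replicate 1 or 2 left 0 of these higher, and pan-neuronal scaling gave 0 higher and 1 lower. Of 8 tested genes of the segregase p97 and its cofactors 5 rose, among them the cofactors Ubxn6 (0.63), Nsfl1c (0.50) and Ubxn1 (0.47), and 0 fell. That count was 1 without IP replicate 2 or unbound replicate 1 or 2, 2 without IP replicate 1 and 3 without IP replicate 3. With library size alone it was 1, and under pan-neuronal scaling 0 rose and 1 fell. As shares, 58.3% of the partners, 57.1% of the shuttles, 16.7% of the ubiquitin and E1 genes and 62.5% of the p97 genes rose. Among all genes tested 23.4% rose, and among those with a mean level of 11.3 to 287 CPM 35.4% did. Some listed genes lie outside that range, and no difference from these shares was tested.

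Of 11 tested regulators of proteasome transcription 2 rose, 1 fell and the median was 0.03, close to that of all genes tested. Their shares were 18.2% higher and 9.09% lower, against 23.4% and 22.2% of all genes tested. Leaving out IP replicate 1 or 3 or any unbound replicate left 1 higher, without unbound replicate 3 there were 2 lower, and under pan-neuronal scaling 0 rose and 6 fell. In lane 2 alone 0 rose and 1 fell. Nfe2l2 stood at 4.40, 5.17 and 4.17 CPM in IP and 20.3, 22.6 and 27.4 CPM in unbound libraries, a 5.12-fold lower level in IP (log2 -2.36 ± 0.19, adjusted p = 1.0e-04, edgeR). Nfe2l1, chosen after its values were seen, stood at 317, 321 and 255 CPM in IP and 242, 237 and 262 CPM in unbound libraries, which overlapped (log2 0.27, adjusted p = 0.145, edgeR). Mafk (0.86) and Maff (0.99) rose. Of 12 genes of antigen presentation and interferon 2 rose (H2-D1, with overlapping groups, and Ifngr2) and 3 fell, B2m (-1.20), H2-K1 (-1.86) and Nlrc5, an activator of class I genes (-3.01). As shares these are 16.7% higher and 25% lower, near the 23.4% and 22.2% of all genes tested. None of the 12 rose with library size alone, in lane 2, under pan-neuronal scaling (6 lower) or without IP replicate 1 or 2 or unbound replicate 1 or 2, and 1 rose without unbound replicate 3. The major histocompatibility genes have close copies, so their levels are uncertain.

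Values are given for 2 other complexes. The COP9 signalosome, which is built like the lid, had 9 of 9 genes higher with a median of 0.64, and the CCT chaperonin had 4 of 8 higher and 0 lower with a median of 0.35. Under pan-neuronal scaling COP9 had 0 higher and 0 lower (median -0.0049) and CCT 0 higher and 3 lower (median -0.29). COP9 had 5 higher without unbound replicate 1, and CCT had 1 higher without IP replicate 2 or unbound replicate 1 or 2. In lane 2 alone COP9 had 2 higher and CCT 0. The shares called higher were 100% for COP9 and 50% for CCT, against 23.4% of all genes tested. Among genes tested with a mean level of 11.3 to 287 CPM the share was 35.4%. No difference of these complexes from the proteasome or from these shares was tested.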

How the data were processed

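Hypothalamic RNA of 3 IP and 3 unbound libraries was sequenced, and the authors deposited one table of raw counts per library. Alignment with STAR 2.0.0e to mm10 and counting with HTSeq are named in the submitters' processing notes; the sources used here do not give the annotation, strand setting or filters. HTSeq summary rows stayed out of library sizes, as did the reads listed as unknown (0 to 2 a library).

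Counts of all 32531 gene features were scaled with TMM and tested with edgeR 4.0.16 (R 4.3.3; robust quasi-likelihood fit, filterByExpr, minimum count 10, minimum total 15), with Benjamini-Hochberg adjustment over 17034 genes and a threshold of 0.05. DESeq2 1.42.0 and limma 3.58.1 served as alternatives. The script was tested on simulated data, where unchanged genes made up 17 of 134 calls, more than the threshold allows. There 34.7% of 2-fold changes were called. The simulation changed only 98 genes by 2-fold and 98 by 4-fold out of 16745, while 45.6% of genes tested were called here. Its rates therefore do not carry over to these calls. A call near the threshold is still taken as weak, and a missing call does not show that a gene is unchanged. Lists were described by counts and medians, without a set test. Members and gene lists were chosen with earlier results of these data known. Values in each library are given for the catalytic pairs, for Psme1 and Psme2, for the highest and lowest log2 fold change of each role and for members called against the majority; of the other lists, up to 3 genes with the smallest adjusted p and any called against the majority. One gene that this rule names is not reported here.

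Deviations from the group mean correlated at 0.143, 0.164 and 0.207 between same-numbered libraries, each over 0.1 over all genes tested, so the numbers were taken as pairs for the alternative with a replicate block; the pairing comes from this check, not from a label. Over the members alone the same correlations were -0.364, 0.549 and -0.272, so for these genes they do not bear out the pairing. Positions, lengths and overlaps are from GENCODE M21, which matched all 49 genes, and promoters from RefSeq (GRCm38.p6), which matched 41. Counting floors of 3 counts cover counting error only.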

Additional observations from a re-analysis of the deposited data

How the results depend on the processing

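Scaling on pan-neuronal markers and the use of lane 2 alone moved the count of members called higher most. Scaled on pan-neuronal markers, 3 members were higher and 10 lower, all genes gave 641 higher and 7903 lower, and the medians reversed to -0.12 (members), -0.084 (core) and -0.13 (regulatory particle). Under that scaling 26 single values also reversed: Psma1 -0.45, Psma3 -0.13, Psma4 -0.37, Psma5 -0.16, Psma6 -0.10, Psmb3 -0.12, Psmb4 -0.071, Psmb5 -0.12, Psmb7 -0.028, Psmc1 -0.16, Psmc2 -0.12, Psmc4 -0.15, Psmc5 -0.56, Psmd1 -0.30, Psmd2 -0.39, Psmd6 -0.068, Psmd7 -0.0074, Psmd9 -0.20, Psmd10 -0.41, Psmd11 -0.11, Psmd12 -0.19, Psmd13 -0.28, Psmd14 -0.13, Psme3 -0.29, Psmf1 -0.38 and Psmg2 -0.42. Psmc5 was also below 0 with library size alone (-0.060), in lane 2 (-0.069) and without unbound replicate 1 (-0.0886) or 2 (-0.0890), and was 0.32 without unbound replicate 3. The medians of members, core and regulatory particle were 0.46, 0.49 and 0.44 with DESeq2 size factors, 0.38, 0.42 and 0.37 with library size alone, 0.45, 0.48 and 0.44 in the DESeq2 test and 0.44, 0.47 and 0.41 in lane 2. Lane 2 gave 6 members higher and 1 lower, and 1303 and 2520 of all genes; it holds 4 of the 6 libraries. The median of members was 0.57 with the GC trend removed, with or without the replicate block, and 0.48 with TMM over the tested genes alone, an alternative chosen after seeing the data. Leaving out 1 library gave 18 to 35 members higher, 1 to 3 lower, 2439 to 4140 of all genes higher and 3338 to 4429 lower, with medians of 0.42 to 0.58 (members), 0.45 to 0.61 (core), 0.42 to 0.57 (regulatory particle) and -2.06 to -1.22 (immune subunits). With at least 1 CPM in 3 libraries Psmb8 was not tested and 1 member was lower, and 1 was lower without both libraries numbered 3. With the replicate block 35 members were higher and 2 lower; beside Psma3, Psmd1 and Psme3 it changed no member's call. The median level per kb in IP was 58.8 with the longest transcript as length. Where not stated, the cause was not tested. Depth limits Psmb8, Psmb9, Psmb11, Psma8 and Psme2b.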
